A study of Homo sapiens with 3 samples.

Results

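The genes described here encode 9 cell surface proteins by which mesenchymal stromal cells and cancer stem cells are commonly recognised: NT5E (CD73), ENG (endoglin, CD105), THY1 (CD90), CD44, ALCAM (CD166), MCAM (CD146), CD24, NGFR (CD271) and PROM1 (prominin 1, CD133). They were chosen by gene symbol, and each matched 1 of the 46427 genes in a table of RNA sequencing read counts. The table covered 3 libraries, with 1 library per group. In the SPRR1A siRNA library, MG-OKS cells had been transfected with an siRNA against SPRR1A, a gene of the cornified envelope of squamous epithelia. In the scrambled library, MG-OKS cells had received a scrambled siRNA, and in the untransfected library, labelled WT, neither siRNA is named. MG-OKS is a human line that the series title places among osteosarcoma cells made artificially to resemble cancer stem cells, and the labels call the cells mesenchymal. All groups therefore share 1 line, and the labels do not say whether the untransfected cells saw the transfection lipid. The comparisons ask how the transcripts of these markers stood when SPRR1A was targeted, with both kinds of control.

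As background, NT5E, ENG and THY1 make up the core of the panel by which cultured mesenchymal stromal cells are defined, together with the absence of blood cell markers. NT5E is an ectoenzyme that turns extracellular AMP into adenosine, ENG is a co-receptor for TGF-beta and BMP ligands, and THY1 is a small immunoglobulin-like protein held in the membrane by a GPI anchor. CD44 binds hyaluronan and is linked to the cytoskeleton by ezrin, radixin and moesin. ALCAM and MCAM are adhesion molecules of the immunoglobulin superfamily, CD24 is a heavily glycosylated GPI-anchored protein, NGFR is the low-affinity neurotrophin receptor, and PROM1 is a pentaspan glycoprotein of membrane protrusions. CD44, CD24, ALCAM and PROM1 have been used to sort tumour cells with stem cell properties. In flow cytometry such markers are read as protein, whereas transcripts were measured here.

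The libraries held 34453554 counts (SPRR1A siRNA), 36533542 counts (scrambled) and 40050593 counts (untransfected). A single library stands for each group, so no difference could be checked against replicates or tested, and every ratio compares libraries rather than conditions. Intervals are 95% intervals for counting error only, since no molecular identifiers are named in the labels. Levels are given as CPM, counts scaled for depth and library composition, and 14233 genes that reached 1 CPM in at least 1 library were kept. A kept gene was called when its ratio was at least 2-fold and the interval of the ratio excluded 1. SPRR1A itself had 0 counts in all 3 libraries, so the targeting could not be checked from these counts. Of 8 mesenchymal genes listed as a check of the cell type, 7 were kept, and the summed level of the list was 1859 CPM under SPRR1A siRNA, 4467 CPM in scrambled and 4702 CPM in untransfected cells. Of 8 epithelial genes 6 were kept, with summed levels of 1758, 1429 and 3098 CPM in the same order. VIM carried most of the mesenchymal sum and KRT14 most of the epithelial one, while the epithelial genes EPCAM and CDH1 were close to 0. None of 8 blood lineage genes, such as PTPRC and CD34, reached 1 CPM. Their summed level was between 1.13 and 1.27 CPM, and HLA-DRA and HLA-DRB1 were among those at 0 in every library.

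The 9 markers spanned the whole range from abundant to undetected. On the length-scaled TPM that were deposited, CD44 led in every library with 622.7 TPM under SPRR1A siRNA, 697.1 TPM in scrambled and 797.9 TPM in untransfected cells. These levels placed CD44 at rank 234, 210 and 176 among all genes in the same order of libraries. In the untransfected library ALCAM came next with 234.4 TPM, then NT5E with 147.0 TPM, CD24 with 94.2 TPM, ENG with 92.4 TPM, THY1 with 54.4 TPM and NGFR with 1.003 TPM. CD24 (interval 91.2 to 97.2 TPM) and ENG (interval 89.9 to 94.9 TPM) could not be ordered there, and neither could PROM1 and MCAM with 8 counts each. The SPRR1A siRNA library had the same leading order, with ENG at 57.8 TPM and CD24 at 55.4 TPM again overlapping in their intervals. In the scrambled library ALCAM stood lower, at 65.5 TPM (63.7 to 67.3), behind NT5E at 168.1 TPM and ENG at 77.0 TPM and ahead of CD24 at 58.7 TPM (56.3 to 61.2). The 9 genes summed to 1270 TPM under SPRR1A siRNA, 1104 TPM in scrambled and 1421 TPM in untransfected cells. ALCAM made up 24.0% of that sum under SPRR1A siRNA, 5.93% in scrambled and 16.5% in untransfected cells. In bulk RNA, fewer cells of a type and less RNA per cell cannot be told apart.

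**Figure D1:**
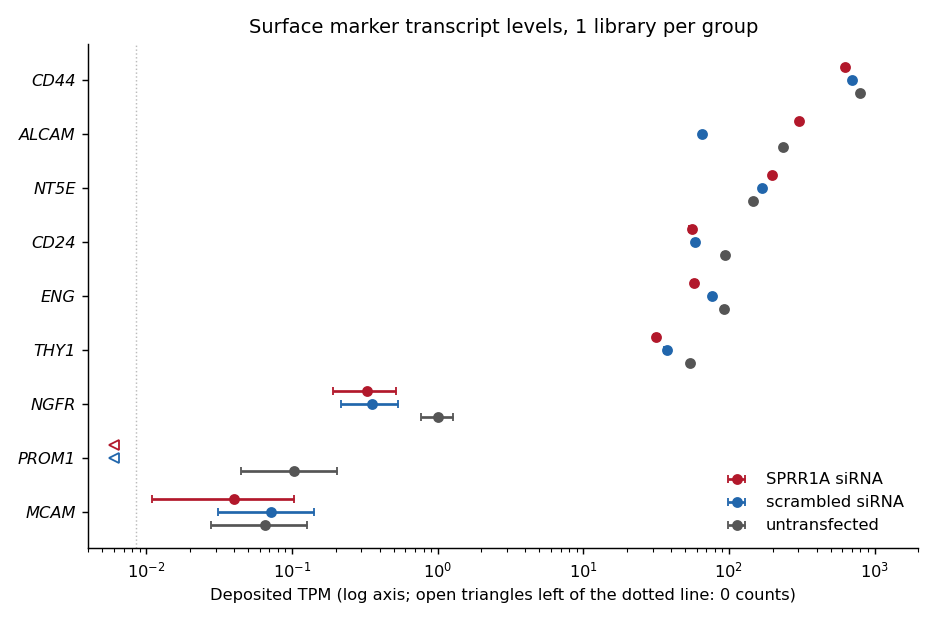
Deposited TPM of the 9 surface marker genes (log axis) in the SPRR1A siRNA, scrambled and untransfected libraries, with bars for 95% counting intervals and 1 library per group. CD44 leads throughout, ALCAM at 65.5 TPM in the scrambled library stands below its levels of 304.8 and 234.4 TPM in the other libraries, and NGFR, MCAM and PROM1 lie near or below 1 TPM.

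Of the 9 genes 7 were kept, and few of them passed the 2-fold threshold in any comparison. In SPRR1A siRNA over scrambled, 1 of the 7 was called, ALCAM, which was higher, where 11.0% of all kept genes were called in either direction (3.70% higher and 7.26% lower). NGFR, which was lower, was the 1 gene called in SPRR1A siRNA over untransfected, against 10.7% of all kept genes in either direction (2.35% higher and 8.36% lower). In scrambled over untransfected, ALCAM and NGFR were both lower, against 4.95% of all kept genes in either direction (1.51% higher and 3.44% lower). With 7 genes, 1 call is a share near the background of the SPRR1A siRNA comparisons. Of the 2 genes called in scrambled over untransfected, NGFR could pass the filter through the untransfected library alone. The median log2 ratio of the 7 was -0.12 for SPRR1A siRNA over scrambled, -0.64 for SPRR1A siRNA over untransfected and -0.48 for scrambled over untransfected, beside medians of all kept genes of -0.0009, -0.0041 and 0.0032. CD44, ENG, THY1, CD24 and NGFR had their lowest CPM in the SPRR1A siRNA and their highest in the untransfected library, an order of values that 19.4% of all kept genes also had. For CD24 and NGFR the intervals do not separate SPRR1A siRNA from scrambled, and NGFR was kept only through the untransfected library, so the order holds beyond counting error for CD44, ENG and THY1. NT5E ran the opposite way, and ALCAM was lowest in the scrambled library, as were 30.1% of all kept genes. Each pair of comparisons shares a library, so these ratios are not independent of one another.

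**Figure D2:**
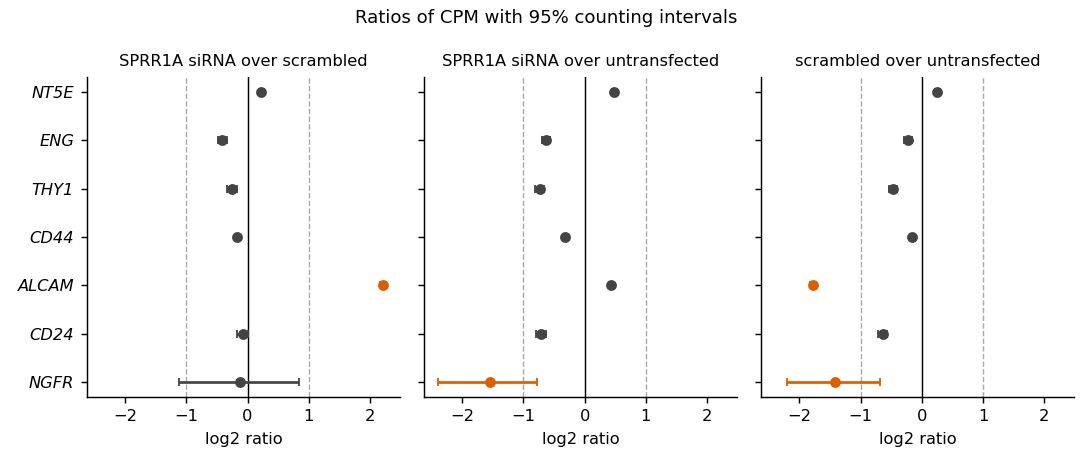
Log2 ratios of the 7 kept markers for SPRR1A siRNA over scrambled, SPRR1A siRNA over untransfected and scrambled over untransfected, with bars for 95% counting intervals, dashed lines at the 2-fold threshold and orange for called genes. The points are ratios without a prior count, ALCAM lies far right in the first panel and far left in the third, NGFR passes the threshold in the comparisons with the untransfected library, and the other markers lie inside the lines.

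The core stromal markers differed between libraries by less than 2-fold and not in one direction. NT5E (NCBI Gene 4907, chr6:85450083-85495784, with positions of all 9 genes from RefSeq on GRCh38.p14) had 11306 counts (331.7 CPM) under SPRR1A siRNA, 10305 counts (283.8 CPM) in scrambled and 9690 counts (237.9 CPM) in untransfected cells. Its CPM was therefore highest under SPRR1A siRNA, 1.17-fold above scrambled (1.14 to 1.20) and 1.39-fold above untransfected (1.36 to 1.43). Scrambled was itself 1.19-fold above untransfected (1.16 to 1.23). ENG (NCBI Gene 2022, chr9:127815016-127854658) had 2793, 3955 and 5196 counts, or 82.0, 108.9 and 127.6 CPM, in the SPRR1A siRNA, scrambled and untransfected libraries. ENG was 1.33-fold lower than scrambled (1.27 to 1.40) and 1.56-fold lower than untransfected (1.49 to 1.63), while scrambled was 1.17-fold lower than untransfected (1.12 to 1.22). THY1 (NCBI Gene 7070, chr11:119415476-119424985) had 2264, 2877 and 4492 counts, or 66.4, 79.2 and 110.3 CPM, in the SPRR1A siRNA, scrambled and untransfected libraries. THY1 in the SPRR1A siRNA library was 1.19-fold lower than scrambled (1.13 to 1.26) and 1.66-fold lower than untransfected (1.58 to 1.75). The step between the controls was larger for THY1, with scrambled 1.39-fold lower than untransfected (1.33 to 1.46), than the step between the siRNAs. Long noncoding genes overlap ENG and THY1, and whether counting used the strand is not given in the sources used here. Their own counts came to at most 2.98% of the ENG counts and 3.22% of the THY1 counts in any library.

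No gene of the adenosine or GPI anchor lists was called, where 11.0%, 10.7% and 4.95% of all kept genes were called. These shares are for SPRR1A siRNA over scrambled, SPRR1A siRNA over untransfected and scrambled over untransfected. Of 12 genes of the extracellular adenosine pathway 5 were kept and none was called in any comparison, with list medians of -0.30 for SPRR1A siRNA over scrambled, -0.34 for SPRR1A siRNA over untransfected and 0.11 for scrambled over untransfected. The nucleoside transporter gene SLC29A1 had the most counts among them, 8757 under SPRR1A siRNA, 7722 in scrambled and 13404 in untransfected cells. ENTPD1 (CD39), the ectoenzyme that supplies AMP to NT5E, had 0, 0 and 13 counts in the same order and was not kept. All 15 genes of GPI anchor synthesis and attachment, on which THY1, NT5E and CD24 depend for their place in the membrane, were kept, and none was called, with list medians between -0.01 and 0.02 on the log2 scale. PIGT, a subunit of the GPI transamidase and the most counted of them, had 6417, 9320 and 10872 counts in the SPRR1A siRNA, scrambled and untransfected libraries.

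Among 15 receptor partners and signal carriers of ENG, 13 were kept. Against scrambled, 1 was higher and 1 lower under SPRR1A siRNA, where 3.70% of all kept genes were higher and 7.26% lower. TGFBR3 (betaglycan), a co-receptor related to ENG, had 463 counts under SPRR1A siRNA, 1910 in scrambled and 1120 in untransfected cells. It was thus 3.87-fold lower than scrambled (3.50 to 4.30) and 2.02-fold lower than untransfected. No other gene of the list was called lower in SPRR1A siRNA over untransfected, where 8.36% of all kept genes were. SMAD2, a receptor-activated SMAD, had 3263, 1270 and 3170 counts in the SPRR1A siRNA, scrambled and untransfected libraries. SMAD2 was 2.74-fold higher than scrambled (2.57 to 2.92) and 1.23-fold higher than untransfected (1.17 to 1.29), which was not called, while scrambled was 2.23-fold lower than untransfected (2.09 to 2.38). In scrambled over untransfected TGFBR1 (log2 -1.04) and TGFB1 (-1.09) were also lower and TGFBR2 (1.03) was higher, and these genes are named after their values were seen. In all, 3 of the 13 were lower and 1 higher there, against 3.44% and 1.51% of all kept genes. The list median was 0.21 for SPRR1A siRNA over scrambled, -0.16 for SPRR1A siRNA over untransfected and -0.07 for scrambled over untransfected.

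CD44, the most abundant of the markers, had its lowest level under SPRR1A siRNA, by steps well under 2-fold. CD44 (NCBI Gene 960, chr11:35139171-35232402) had 45594 counts (1338 CPM) under SPRR1A siRNA, 54616 counts (1504 CPM) in scrambled and 68411 counts (1680 CPM) in untransfected cells. It was 1.12-fold lower than scrambled (1.11 to 1.14) and 1.26-fold lower than untransfected (1.24 to 1.27). Scrambled was also 1.12-fold lower than untransfected (1.10 to 1.13), and the intervals of these steps, between the siRNAs and between the controls, overlap. Counts per gene do not separate the standard CD44 isoform from its variant isoforms. Of 19 genes for CD44 ligands, hyaluronan synthesis, shedding and splicing, 15 were kept, with 1 higher and 1 lower in SPRR1A siRNA over scrambled (list median -0.17). Against untransfected, 1 was lower under SPRR1A siRNA (median -0.13), and 1 was higher and 1 lower in scrambled (median 0.09). Over all kept genes, 3.70% were higher and 7.26% lower in SPRR1A siRNA over scrambled. Against untransfected, 8.36% were lower under SPRR1A siRNA, and 1.51% were higher and 3.44% lower in scrambled. SPP1 (osteopontin), a secreted ligand of CD44, had 6 counts under SPRR1A siRNA, 86 in scrambled and 28 in untransfected cells. SPP1 was 13.5-fold lower than scrambled (5.93 to 37.7) and 3.91-fold lower than untransfected (1.59 to 11.5), and 3.45-fold higher in scrambled than in untransfected (2.23 to 5.48), all from low counts. SPP1 was kept only through the scrambled library, where it is highest. RDX (radixin), which links CD44 to actin, had 2235, 1009 and 2618 counts in the SPRR1A siRNA, scrambled and untransfected libraries. RDX was 2.36-fold higher than scrambled (2.19 to 2.55) with a ratio of 1.02 to untransfected (0.964 to 1.08), and scrambled was 2.31-fold lower than untransfected (2.15 to 2.49). The scrambled library was therefore the low one for RDX, as it was for SMAD2 and ALCAM.

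ALCAM had the widest span of the kept markers between the siRNA libraries, and the library that stood apart was the scrambled one. ALCAM (NCBI Gene 214, chr3:105366909-105576900) had 22404 counts (657.3 CPM) under SPRR1A siRNA, 5141 counts (141.6 CPM) in scrambled and 19877 counts (488.0 CPM) in untransfected cells. By deposited TPM it ranked 491, 2476 and 649 among all genes in the same order. It was 4.64-fold higher under SPRR1A siRNA than in the scrambled library (4.50 to 4.79). Against the untransfected library it was 1.35-fold higher (1.32 to 1.37) and was not called. Scrambled was 3.45-fold lower than untransfected (3.34 to 3.56). Most of the distance between the siRNA libraries thus lay between the scrambled and the untransfected library, and a direction taken from SPRR1A siRNA over scrambled alone rests on the scrambled library.

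The 3' untranslated regions (UTRs) of the kept genes were therefore searched for short sequences that went with a low level in the scrambled library. As background, an siRNA can lower transcripts other than its target when a short stretch near its 5' end pairs with their 3' UTR. The sequence of neither siRNA is in the sources used here. The longest annotated 3' UTR was taken for each of 12120 genes, and 14312 sequences of 7 bases held by at least 200 of them were ranked by the median log2 ratio of their holders in scrambled over untransfected. Only the transcript strand was searched. GCAGTAC ranked lowest, with a median of -0.26 over the 644 genes (5.31%) that held it and of 0.02 over the genes that did not. Because it was picked by this ratio, these values are a description. Of its holders 12.6% were called lower in scrambled over untransfected, where 3.28% of all searched genes were. In SPRR1A siRNA over scrambled, which shares the scrambled library, the median of the holders was 0.30, 16.6% were higher against 3.18% of all searched genes, and the sequence ranked 1 from the top. In SPRR1A siRNA over untransfected, without the scrambled library, the median was 0.07, with 2.33% higher and 6.21% lower against 1.85% and 8.06% of all searched genes. ALCAM was the 1 of the 9 markers whose longest 3' UTR held GCAGTAC. It is one of 215 genes that hold the sequence followed by A, with medians of 0.38 for SPRR1A siRNA over scrambled, 0.06 for SPRR1A siRNA over untransfected and -0.38 for scrambled over untransfected. Among 1708 genes with a 3' UTR within 20% of the 2449 bases of the ALCAM one, 7.26% held GCAGTAC.

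The stretches around the sequence are shown for ALCAM and, 1 for each gene, for the 2 list genes that were called lower in scrambled over untransfected and hold it, RDX and SMAD2. Each is 29 bases of the 3' UTR from GENCODE release 29 on GRCh38, written 5' to 3' on the transcript strand, with GCAGTAC in capitals. They lie at chr3:105575544-105575572 on the plus strand for ALCAM, at chr11:110229932-110229960 on the minus strand for RDX, and at chr18:47841385-47841413 on the minus strand for SMAD2.
ALCAM: taatttatcaaGCAGTACatgaaagtgta
RDX: tattcctacttGCAGTACatcaaaggaat
SMAD2: tttataaagttGCAGTACctaatctgtta
In ALCAM the capitals start at base 1104 of the 3' UTR, counted from 1 after the stop codon. The shortest annotated 3' UTR of ALCAM, of 101 bases, does not reach it, nor do the shortest ones of RDX (386 bases) and SMAD2 (322 bases), and counts per gene do not tell these forms apart. Among the 644 holders ranked from the lowest ratio of scrambled over untransfected, ALCAM stood at rank 16, RDX at 52 and SMAD2 at 56. All 3 were already known to be called lower in this ratio, as were 81 of the holders. The ranks are therefore a description. Of the kept genes on the pathway and marker lists, ACVR2A (an activin receptor), LEPR (the leptin receptor) and TEK (the angiopoietin receptor) also hold the sequence, and their ratios of scrambled over untransfected, -0.07, -0.29 and -0.48 on the log2 scale, were not called. Of 9 list genes called lower in scrambled over untransfected the other 7, TGFBR1, TGFB1, RTN4R, NECTIN1, ITGA11, KRT5 and KRT14, do not hold the sequence in longest 3' UTRs of 156 to 6526 bases. The longest annotated 3' UTR of SMAD2 has 32870 bases, and a longer stretch holds any 7 bases more often. Of the 397 searched genes called lower in scrambled over untransfected, 20.4% hold GCAGTAC, so most genes low in that library do not. The part of the sequence in the ALCAM level was not tested.

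**Figure D3:**
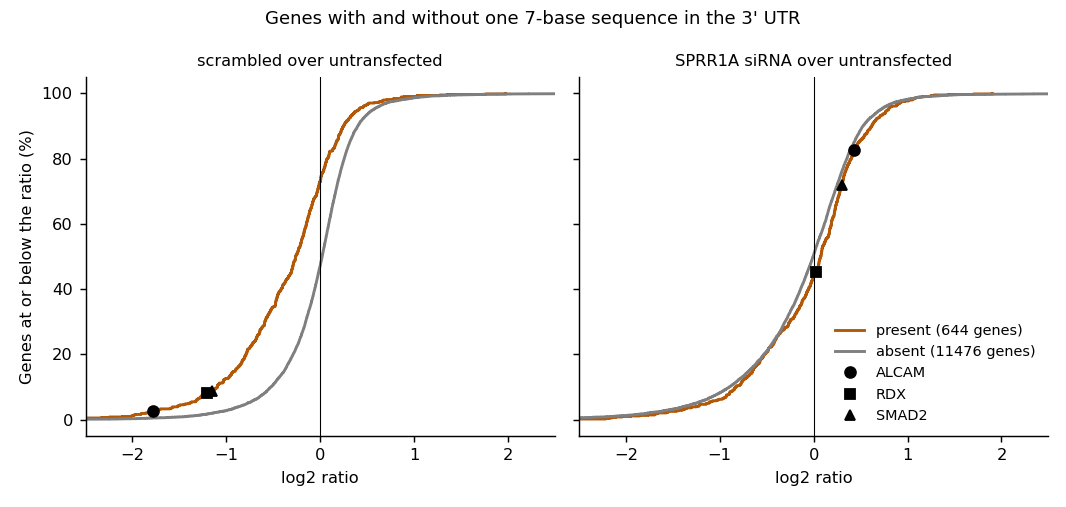
Cumulative share of genes by log2 ratio of scrambled over untransfected and of SPRR1A siRNA over untransfected, for the 644 genes whose longest 3' UTR holds GCAGTAC (orange) and the other searched genes (grey), with ALCAM, RDX and SMAD2 marked. The curve of the holders lies to the left in scrambled over untransfected (median -0.26, against 0.02 for the other genes) and close to the others in SPRR1A siRNA over untransfected (0.07, against -0.01).

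The 5 genes with the most similar pattern to ALCAM were LSM14A, HS6ST1, XPR1, STEAP3 and SNRNP27, among 9654 kept genes with a mean of at least 10 CPM. Likeness was the Euclidean distance over the log2 ratios SPRR1A siRNA over scrambled and scrambled over untransfected, which rest on 3 libraries and share the scrambled one. The nearest, LSM14A, a factor of mRNA processing bodies, had 8041 counts under SPRR1A siRNA, 2112 in scrambled and 7114 in untransfected cells, at a distance of 0.28. HS6ST1, a heparan sulfate sulfotransferase, had 2132, 634 and 2546 counts in the same order. XPR1, a phosphate exporter, had 2120, 547 and 1663 counts. All 5 were low in the scrambled library, as the measure requires. The iron reductase gene STEAP3 had 4060, 1188 and 5327 counts in the SPRR1A siRNA, scrambled and untransfected libraries, and the spliceosome gene SNRNP27 had 1695, 358 and 1015 counts. In SPRR1A siRNA over untransfected, which the measure implies but does not contain, their log2 ratios were 0.43 for LSM14A, 0.00 for HS6ST1, 0.61 for XPR1, -0.13 for STEAP3 and 0.995 for SNRNP27, beside 0.43 for ALCAM. LSM14A, XPR1 and STEAP3 hold GCAGTAC in their longest 3' UTR, and HS6ST1 and SNRNP27 do not. Since the sequence and the measure were both chosen by the scrambled library, this count is a description.

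MCAM and the adhesion genes related to it and to ALCAM were mostly not called. Of 15 immunoglobulin superfamily relatives and ligands, 11 were kept. In SPRR1A siRNA over scrambled, where 3.70% of all kept genes were higher and 7.26% lower, 1 of the 11 was lower and none higher. This gene, NCAM1, a homophilic neural adhesion molecule also used as a stromal marker, had 177 counts under SPRR1A siRNA, 507 in scrambled and 579 in untransfected cells. NCAM1 was 2.69-fold lower than scrambled and 2.74-fold lower than untransfected. The list medians were -0.21 for SPRR1A siRNA over scrambled, -0.44 for SPRR1A siRNA over untransfected and -0.30 for scrambled over untransfected. Against untransfected, 3 of the 11 were lower under SPRR1A siRNA, where 8.36% of all kept genes were. Among them was LGALS1 (galectin 1, a glycan-binding ligand) with 16619 counts under SPRR1A siRNA, 30041 in scrambled and 42490 in untransfected cells. MCAM (NCBI Gene 4162, chr11:119308529-119317130), a marker of perivascular stromal cells, was itself barely detected, with 4 counts under SPRR1A siRNA, 8 in scrambled and 8 in untransfected cells. Its ratio of SPRR1A siRNA over scrambled had an interval that reached past 1 in both directions, 1.88-fold lower with 0.503 to 8.52, so no difference was detectable at this depth. The same held for SPRR1A siRNA over untransfected, 1.67-fold lower (0.448 to 7.60), and for scrambled over untransfected, with a ratio of 1.12 (0.367 to 3.43).

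CD24 stood apart from ALCAM in that both siRNA libraries lay close to each other and below the untransfected one. CD24 (NCBI Gene 100133941, chr6:106969831-106976855) had 1945 counts (57.1 CPM) under SPRR1A siRNA, 2184 counts (60.1 CPM) in scrambled and 3815 counts (93.7 CPM) in untransfected cells. The ratio of SPRR1A siRNA over scrambled was 0.949 (0.892 to 1.01), an interval that includes 1. Against untransfected, SPRR1A siRNA was 1.64-fold lower (1.55 to 1.73) and scrambled 1.56-fold lower (1.48 to 1.64). CD24 has near-identical pseudogene copies among which reads can be split. With 3 copies added, the summed counts were 2041, 2309 and 4009 in the SPRR1A siRNA, scrambled and untransfected libraries, and the log2 ratios were -0.09, -0.72 and -0.63 for SPRR1A siRNA over scrambled, SPRR1A siRNA over untransfected and scrambled over untransfected. Epithelial cells also express CD24, and the 8 epithelial genes together had their highest sum, 3098 CPM, in the untransfected library. In TPM the list summed to 2325 under SPRR1A siRNA, 1870 in scrambled and 4226 in untransfected cells. KRT14 carried most of these sums, with 1934, 1439 and 3739 TPM in the same order. In scrambled over untransfected the list did not follow KRT14 as a whole, with a list median of -0.03. TP63 (24, 86 and 65 counts) and CLDN1 (32, 93 and 52 counts) were highest in scrambled. In SPRR1A siRNA over untransfected the list median was -0.66. The defining epithelial genes EPCAM, with 8, 14 and 5 counts, and CDH1, with 9, 2 and 2 counts, were close to 0 in the SPRR1A siRNA, scrambled and untransfected libraries. Their part in the CD24 level was not tested.

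NGFR, a marker that enriches primitive stromal cells from bone marrow, showed the same pattern at a far lower level. NGFR (NCBI Gene 4804, chr17:49495293-49515008) had 18 counts (0.528 CPM) under SPRR1A siRNA, 21 counts (0.578 CPM) in scrambled and 63 counts (1.55 CPM) in untransfected cells. Only the untransfected library passed 1 CPM, so NGFR was kept through the library in which it is highest. It was 2.93-fold lower under SPRR1A siRNA than in untransfected cells (1.71 to 5.26), and scrambled was 2.68-fold lower than untransfected (1.61 to 4.62). Between the siRNA libraries the ratio was 0.913 (0.459 to 1.80), so a difference was not detectable at this depth. The long noncoding gene NGFR-AS1 overlaps NGFR and had 2, 0 and 0 counts in the SPRR1A siRNA, scrambled and untransfected libraries. That is at most 11.1% of the NGFR counts in any library. With a filter of 5 CPM, or on log2(TPM + 1), NGFR was not called. Of 14 neurotrophins, Trk receptors and NGFR partners, 11 were kept, with 1 higher and 2 lower in SPRR1A siRNA over scrambled (list median 0.12). Against untransfected, 3 were lower under SPRR1A siRNA (median -0.33) and 1 in scrambled (median -0.31). Over all kept genes, 3.70% were higher and 7.26% lower in SPRR1A siRNA over scrambled. Against untransfected, 8.36% were lower under SPRR1A siRNA and 3.44% in scrambled. NTRK2, the receptor of BDNF, had 0 counts under SPRR1A siRNA, 29 in scrambled and 44 in untransfected cells. With its 0 counts set to the floor of 3, NTRK2 stood 9.07-fold below scrambled and 12.3-fold below untransfected, values that leave out counting error. NTRK2 was kept only through the untransfected library, where it is highest. BEX3, which binds the intracellular part of NGFR, had 629 counts under SPRR1A siRNA, 3288 in scrambled and 2497 in untransfected cells, a 4.91-fold lower level than scrambled (4.50 to 5.35). SORT1 (sortilin), a co-receptor of NGFR for proneurotrophins, had 53, 27 and 38 counts in the same order and was 2.09-fold higher than scrambled (1.29 to 3.46). SORT1 was kept only through the SPRR1A siRNA library, where it is highest.

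PROM1 was not detected in either siRNA library. PROM1 (NCBI Gene 8842, chr4:15968228-16084023) had 0 counts under SPRR1A siRNA, 0 in scrambled and 8 in untransfected cells, where it stood at 0.103 TPM. With the 0 counts set to the floor of 3, SPRR1A siRNA stood 2.23-fold and scrambled 2.38-fold below untransfected, without counting error. The separate intervals of the levels overlap, at 0.085 to 0.387 CPM in untransfected and up to 0.108 and 0.102 CPM in the SPRR1A siRNA and scrambled libraries. That overlap is not the rule used for calls, which takes the interval of the ratio. PROM1 was not kept. Without the filter it was called lower in both comparisons with untransfected, a call that rests on 8 counts in 1 library. Of 14 other surface markers of cancer stem cells 9 were kept, and KIT, CXCR4 and LGR5 had 0 counts in all libraries. ABCG2, a drug efflux transporter, was the 1 of the 9 called in SPRR1A siRNA over scrambled, where 11.0% of all kept genes were called. It had 62 counts under SPRR1A siRNA, 375 in scrambled and 188 in untransfected cells. It was 5.68-fold lower than scrambled and 2.54-fold lower than untransfected, and 2.24-fold higher in scrambled than in untransfected. IL1RAP, a co-receptor of interleukin 1, was 2.62-fold higher in scrambled than in untransfected, with 393, 581 and 249 counts in the SPRR1A siRNA, scrambled and untransfected libraries. The list medians lay between -0.10 and -0.04 in the 3 comparisons.

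Stromal surface markers outside the 9 included several that were lower under SPRR1A siRNA. Of 15 listed genes 12 were kept, and 3 were lower and none higher in SPRR1A siRNA over scrambled, with a list median of -0.35. Of all kept genes 7.26% were lower in that comparison. The lists were chosen with earlier results of these data known, so their counts are a description. ITGA5, the fibronectin receptor subunit, had 5457 counts under SPRR1A siRNA, 17245 in scrambled and 17673 in untransfected cells, and was 2.97-fold lower than scrambled (2.88 to 3.06). PDGFRB, a receptor of platelet-derived growth factor, had 204, 588 and 932 counts in the same order, and ANPEP (CD13), an aminopeptidase, had 9437, 26455 and 30322 counts. For ITGA5 and ANPEP the controls lay close together and the SPRR1A siRNA library lay below both. Against untransfected, 7 of the 12 were lower under SPRR1A siRNA, where 8.36% of all kept genes were, with a list median of -1.04. In scrambled over untransfected 1 was lower, where 3.44% of all kept genes were, with a list median of -0.50. ITGB1, the partner subunit of ITGA5, was not called, with 15556 counts under SPRR1A siRNA, 13783 in scrambled and 16740 in untransfected cells. VIM (vimentin), an intermediate filament of mesenchymal cells, had 47018, 128424 and 138198 counts in the SPRR1A siRNA, scrambled and untransfected libraries. The mesenchymal list as a whole had 3 of 7 kept genes lower in SPRR1A siRNA over scrambled and 5 of 7 lower in SPRR1A siRNA over untransfected. PDGFRB is on this list and on the stromal one, so their counts are not separate. The shares over all kept genes were 7.26% and 8.36%. COL3A1, a fibrillar collagen gene, had 1636, 4652 and 7729 counts in the SPRR1A siRNA, scrambled and untransfected libraries and was 2.67-fold lower than scrambled. Of the epithelial list TP63, a transcription factor of basal epithelia, and CLDN1, a tight junction protein gene, were lower under SPRR1A siRNA than in scrambled and none was higher. Of 6 endothelial genes, listed because endothelial cells also carry ENG and MCAM, 3 were kept and none was called, and CDH5 had 0 counts in all libraries. The part of these marker lists in the levels of the 9 genes was not tested.

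**Figure D4:**
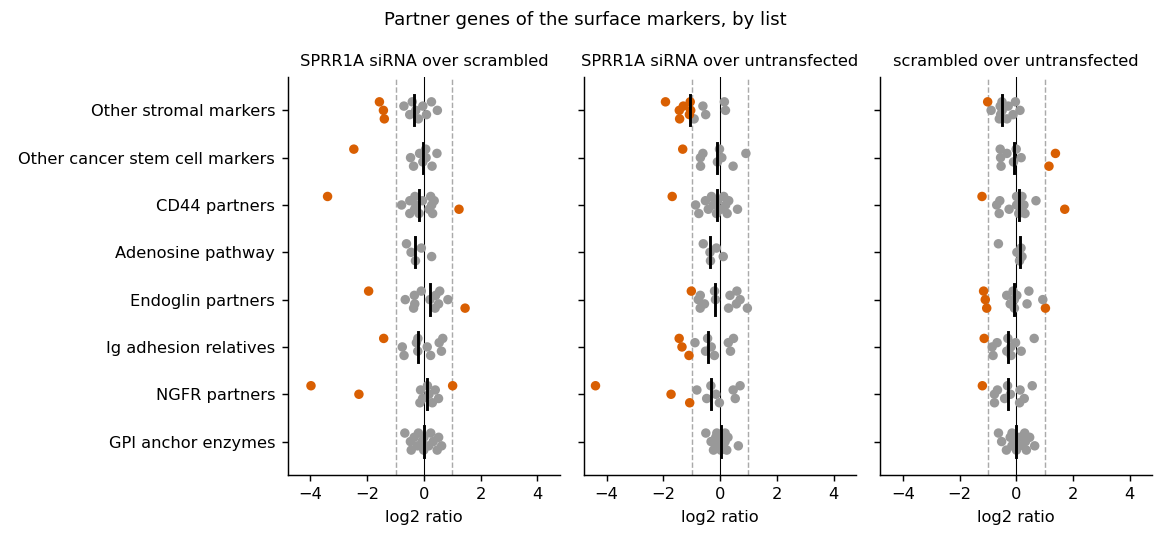
Log2 ratios of the kept genes of 8 pathway and marker lists in SPRR1A siRNA over scrambled, SPRR1A siRNA over untransfected and scrambled over untransfected, with 1 point per gene, orange for called genes, a bar at each list's median and dashed lines at 2-fold. The other stromal markers lie toward lower values in SPRR1A siRNA over untransfected (median -1.04), and no gene of the GPI anchor list is called in any panel.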

How the data were processed

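RNA of MG-OKS cells was extracted on columns and sequenced from stranded poly(A) libraries, per the labels' protocols. The authors deposited whole-number read counts, FPKM and TPM per gene in 1 table. HISAT2 2.1.0 and the builds GRCh38 and hg38 are named in the submitters' processing notes. The counting tool, annotation release and strand setting are not given in the sources used here. Sums of the deposited TPM were 999131 (SPRR1A siRNA), 999391 (scrambled) and 999225 (untransfected), and the deposited FPKM served to derive the gene length behind each value. That length differed between libraries by at most 1.41% for CD44, ALCAM, NT5E, ENG, THY1 and CD24. It differed by 3.67% for NGFR and 7.07% for MCAM, both at low counts, and by 38.2% for SMAD2, whose TPM are not used. Groups came from titles and genotype labels.

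The counts were scaled in R 4.3.3 by TMM (edgeR 4.0.16), with factors of 0.9892, 0.994 and 1.0169 for the libraries as listed, and log2 ratios used a prior count of 2. Levels carry exact Poisson and ratios exact conditional binomial 95% intervals, computed with SciPy 1.17.1. The floor of 3 counts was 0.088, 0.0826 and 0.0737 CPM. No p-value was computed. The deposited table uses NCBI Gene identifiers, and positions are those of RefSeq GRCh38.p14. The 3' UTRs came from GENCODE release 29. Alternatives were DESeq2 1.42.0 size factors, total counts, totals without the 10 most abundant genes, other filters, prior counts of 0.5 and 5, a 1.5-fold threshold and log2(TPM + 1). Named genes were the 9 markers, up to 4 called genes per list (otherwise the most counted gene), and the 5 genes nearest to a marker called against scrambled. Genes named outside this rule, namely ENTPD1, TGFBR1, TGFB1, TGFBR2, ACVR2A, LEPR, RTN4R, NECTIN1, ITGA11, LGALS1, IL1RAP, KRT5, ITGB1, KRT14 and the marker genes at or near 0, were chosen after their values were seen. The 9 markers and the 12 gene lists were chosen with earlier results of these data known. Some items are not reported here.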

Additional observations from a re-analysis of the deposited data

How the results depend on the processing

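Counts of called genes moved by over 1.5 times with the filter, threshold and unit, and by less with the scaling and the prior count. The widest move with scaling was in SPRR1A siRNA over untransfected, from 334 higher and 1190 lower as reported to 292 and 1285 without the 10 most abundant genes. Given as higher and lower, SPRR1A siRNA over scrambled had 527 and 1034 genes as reported, 1182 and 1964 without a filter, 304 and 574 at 5 CPM, 1610 and 2252 at 1.5-fold, and 288 and 523 on log2(TPM + 1). SPRR1A siRNA over untransfected had 334 and 1190 as reported, and 958 and 2085, 172 and 653, 1254 and 2581, and 162 and 677 under the same settings. Scrambled over untransfected had 215 and 490 as reported, and 870 and 1324, 80 and 236, 723 and 1386, and 69 and 228. Of the 9 markers, 1 (ALCAM) was called in SPRR1A siRNA over scrambled under every alternative. In SPRR1A siRNA over untransfected the count was 1 as reported, 2 without a filter, 0 at 5 CPM, 4 at 1.5-fold and 0 on log2(TPM + 1). In scrambled over untransfected it was 2 as reported, 3 without a filter or at 1.5-fold, and 1 at 5 CPM or on log2(TPM + 1), where NGFR was lost. In both comparisons with untransfected, the marker added without a filter was PROM1. The median of GCAGTAC holders in scrambled over untransfected was -0.26, and -0.34 with the shortest 3' UTR, an alternative chosen after seeing the data. The shortest 3' UTRs give a different set of genes, without ALCAM, RDX and SMAD2, so that median says nothing about these genes. Of 165 single log2 ratios under alternatives 148 stayed within their counting interval, 17 moved and 0 reversed. ALCAM ranged from 2.20 to 2.22, from 0.38 to 0.44 and from -1.82 to -1.78 in the 3 comparisons. Depth limits NGFR, MCAM and PROM1. No paired analysis was possible because each group has 1 library.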
